A study of Mus musculus with 2 samples.

Results

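The respiratory chain subunits examined here are the protein parts of mitochondrial complexes I to V, taken by gene symbol from the 32285 genes of the deposited matrices. The rule took symbols beginning with mt-Nd, mt-Co, mt-Cytb or mt-Atp for the mitochondrial genome. For the nuclear genome it took Nduf (leaving out the assembly factors named Ndufaf), Uqcr, Cox4 to Cox8, Atp5 and Sdha to Sdhd, without Ndufa4l2. It found 98 genes, of which 13 are encoded in the mitochondrial genome and 85 in nuclear chromosomes. Complex I has 7 mt-encoded and 37 nuclear members, complex II 0 and 4, complex III 1 and 8, complex IV 3 and 19 (with Ndufa4), and complex V 2 and 17.

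Complexes I and II pass electrons from NADH and succinate to ubiquinone, complex III passes them on to cytochrome c, complex IV gives them to oxygen, and complex V, the ATP synthase, uses the proton gradient built on the way. Complex II is made from nuclear genes alone, whereas the other complexes need subunits of both genomes. Mitochondrial genes are transcribed as long precursors inside the organelle and cut into the single messages, so their RNA is made and broken down apart from nuclear RNA. Tubular epithelium of the kidney is rich in mitochondria, and endothelium is known for relying largely on glycolysis.

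There was 1 library of saline-treated and 1 of cisplatin-treated mice (20 mg/kg), each from 10 kidneys that were pooled. The mice were male C57BL6/J, 10 to 12 weeks old, and kidneys were collected 72 h after treatment. Cisplatin is a platinum drug that damages DNA and is toxic to the proximal tubule. Cells were enriched with magnetic beads against CD31 and then podoplanin, and transcripts were counted as unique molecular identifiers (UMIs), which tag the 3' end of each molecule and therefore do not scale with transcript length. With 1 library per treatment no difference below has a replicate check or a test, and the 95% intervals cover counting error only.

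The saline library held 5879496 UMIs and 630 barcodes of at least 500 UMIs (median 894), and the cisplatin library 19994105 UMIs and 3441 such barcodes (median 674). The libraries shared 0 of these barcodes. Although the labels call the cells lymphatic endothelial, 1 saline and 5 cisplatin barcodes held at least 2 of 7 lymphatic markers. In barcodes with endothelial markers and at most 20% mt- UMIs, Mmrn1, Reln and Ccl21a were at 0 in both libraries. The other 4 (Prox1, Lyve1, Flt4 and Pdpn) were detected in both, with 41 UMIs in saline and 95 in cisplatin. Barcodes were therefore grouped by which marker list they matched best. Endothelial markers gave 448 saline and 187 cisplatin barcodes with at most 20% mt- UMIs. Proximal tubule markers gave 150 and 1263. In this second group the 20 proximal tubule markers made up 1.93% and 1.47% of non-mt UMIs, against 1.61% and 1.72% in near-empty barcodes, so it is called by its rule and not as a cell type.

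The mt-encoded subunits made up far more of the cisplatin library, while the share of nuclear-encoded subunits in the remaining RNA differed far less. In barcodes of at least 500 UMIs, the 13 mt-encoded genes held 2.46% of all UMIs in saline (95% interval 2.43% to 2.49%). In cisplatin they held 23.8% (23.8% to 23.8%), 9.66 times as much. The 85 nuclear-encoded genes held 2.31% (saline) and 2.44% (cisplatin) of non-mt UMIs, 1.06 times as much (1.04 to 1.07). This figure pools unlike barcodes, since 450 of 630 in saline matched endothelial markers and 2205 of 3441 in cisplatin proximal tubule markers. Within classes the ratio was 1.11 with endothelial and 1.27 with proximal tubule markers, both at or below 20% mt-, and 1.90 in barcodes of 1 to 100 UMIs. Each nuclear-encoded UMI was thus accompanied by 1.09 mt-encoded UMIs in saline and by 12.8 in cisplatin, 11.7 times as many. The deposited mt- rows are exactly these 13 genes, so a barcode's mt- share is its share of mt-encoded subunit UMIs. Barcodes above 20% mt- numbered 3 of 630 in saline (0.476%, exact interval 0.0983% to 1.39%) and 1712 of 3441 in cisplatin (49.8%, 48.1% to 51.4%).

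The difference between the genomes was smaller within the endothelial marker group at or below 20% mt-, a limit that itself caps the mt-encoded share. There the mt-encoded share was 2.16% (saline) and 5.99% (cisplatin), 2.77 times as high (2.73 to 2.82). The median barcode of this group had 1.53% and 7.12% mt-encoded UMIs. Near-empty barcodes of the cisplatin library carried a high mt- share too, and free RNA estimated from proximal tubule markers could supply 4.97% of the mt-encoded UMIs of the saline group and 41.0% of those of the cisplatin group. After that estimate was subtracted, the mt-encoded share was 2.11% and 3.85%. By complex, mt-encoded UMIs per 10000 non-mt UMIs went from 56.8 to 154 for complex I, from 21.2 to 70.3 for the single complex III gene, from 101.2 to 282 for complex IV and from 41.8 to 132 for complex V. The 4 ratios lay between 2.70 and 3.32. In the proximal tubule marker group mt-encoded genes held 3.50% of UMIs (saline) and 10.6% (cisplatin), 3.03 times as much, and there were 3.06 and 7.89 mt-encoded UMIs per nuclear-encoded UMI.

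**Figure D1:**
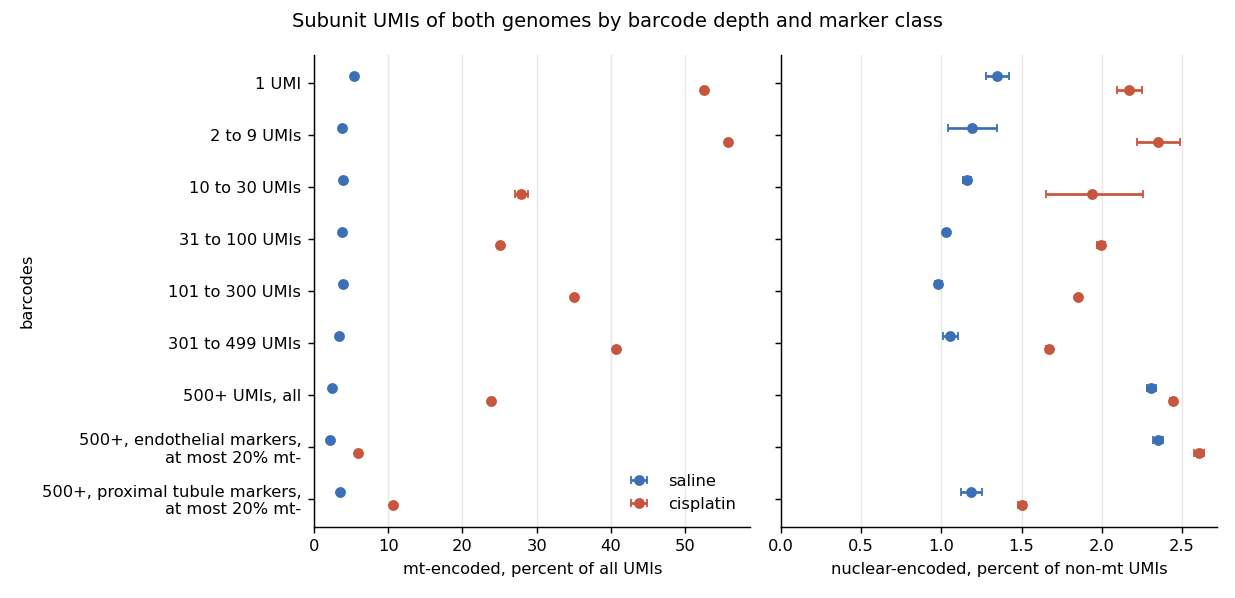
Points give, for each class of barcodes, the mt-encoded members as a percent of all UMIs (left) and the nuclear-encoded members as a percent of non-mt UMIs (right) in the saline (blue) and cisplatin (red) library, with exact 95% intervals. The cisplatin points lie far to the right for mt-encoded members in every class, and for nuclear-encoded members the libraries lie closest in barcodes of 500+ UMIs.

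Barcodes of 1 to 100 UMIs, which hold RNA free in the suspension, differed in the same direction for both genomes. They held 3703779 of the 5879496 saline UMIs but 2140605 of the 19994105 cisplatin UMIs. This class thus takes unlike parts of the 2 libraries. Mt-encoded genes held 3.84% of the UMIs of the class in saline and 30.6% in cisplatin. Nuclear-encoded genes held 1.06% and 2.02% of non-mt UMIs, a ratio of 1.90 (1.87 to 1.93), and there were 3.76 and 21.8 mt-encoded UMIs per nuclear-encoded UMI. The mt-encoded share of the saline library stayed between 3.43% and 5.36% in 6 depth classes below 500 UMIs. In cisplatin it was 52.5% in barcodes of a single UMI, 55.8% at 2 to 9 UMIs, 27.9% at 10 to 30, 25% at 31 to 100, 35.0% above 100 and up to 300, and 40.7% above 300 and below 500. Of the 85 nuclear members, 80 reached 20 UMIs over both libraries in barcodes of 1 to 100 UMIs. At least 1.5-fold higher in cisplatin were 68 of them, where 40% of all 12362 genes measured were, and 0 were as much lower, where 10.2% of all genes were. Their median log2 ratio was 1.01, against 0.40 for all genes. Complex IV had the highest ratio of the nuclear parts, from 21.9 UMIs per 10000 (saline) to 50.7 (cisplatin), 2.32 times as many (2.24 to 2.39). Its neighbours ranged from 1.70 for complex I to 1.90 for complex V.

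The mix of UMIs among the 13 mt-encoded genes also differed between the libraries. In barcodes of at least 500 UMIs, 11.9% of mt-encoded UMIs would have to change gene to turn one mix into the other. The same measure between barcodes above and below 20% mt- within the cisplatin library was 2.22%. Marker groups and depth classes of 1 library differed as well: endothelial against proximal tubule markers gave 15.5% in saline and 5.74% in cisplatin, and barcodes of at least 500 UMIs against those of 1 to 100 gave 13.5% and 4.68%. Between libraries within a marker group the measure was 10.1% (endothelial) and 12.4% (proximal tubule). Of the 13 genes, 6 had a higher and 7 a lower share of mt-encoded UMIs in cisplatin in barcodes of at least 500 UMIs, with 0 intervals that held 1. With endothelial markers 2 intervals held 1, and with proximal tubule markers 4 did.

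The complex IV core subunits did not move together. mt-Co1, which carries the oxygen-binding centre, made up 16.9% of mt-encoded UMIs in saline and 11.0% in cisplatin. mt-Co2, which accepts electrons from cytochrome c, made up 15.8% and 14.9%. mt-Co3 made up 13.5% and 17.4%. mt-Co1 was thus first of the 3 in saline and mt-Co3 first in cisplatin, and the same held with endothelial markers, at 18.5% and 13.6% for mt-Co1 and 11.9% and 15.8% for mt-Co3. It did not hold with proximal tubule markers, where mt-Co3 was first in both libraries (22.0% and 18.3%) and mt-Co1 was at 8.88% and 9.18%. mt-Co3 was also first of the 3 in both libraries in barcodes of 1 to 100 UMIs. mt-Cytb, the only mt-encoded subunit of complex III, made up 9.70% and 11.8%.

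Among the membrane subunits of complex I, mt-Nd1 was at 5.42% in saline and 5.93% in cisplatin, and mt-Nd2 at 5.80% and 7.18%. mt-Nd3 had the largest ratio of shares, at 1.94% and 3.15% (1.62, 1.49 to 1.77). mt-Nd4 was at 7.45% and 5.78%, and mt-Nd5 at 1.92% and 1.68%. The interval of the ratio held 1 for mt-Nd3 with proximal tubule markers and for mt-Nd5 with endothelial markers. mt-Nd6 lies on the other strand from the remaining 12 genes (chromosome M, positions 13552 to 14070 of GRCm38, minus strand) and was rarest, at 54 UMIs (0.194%) in saline and 1018 (0.0956%) in cisplatin.

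**Figure D2:**
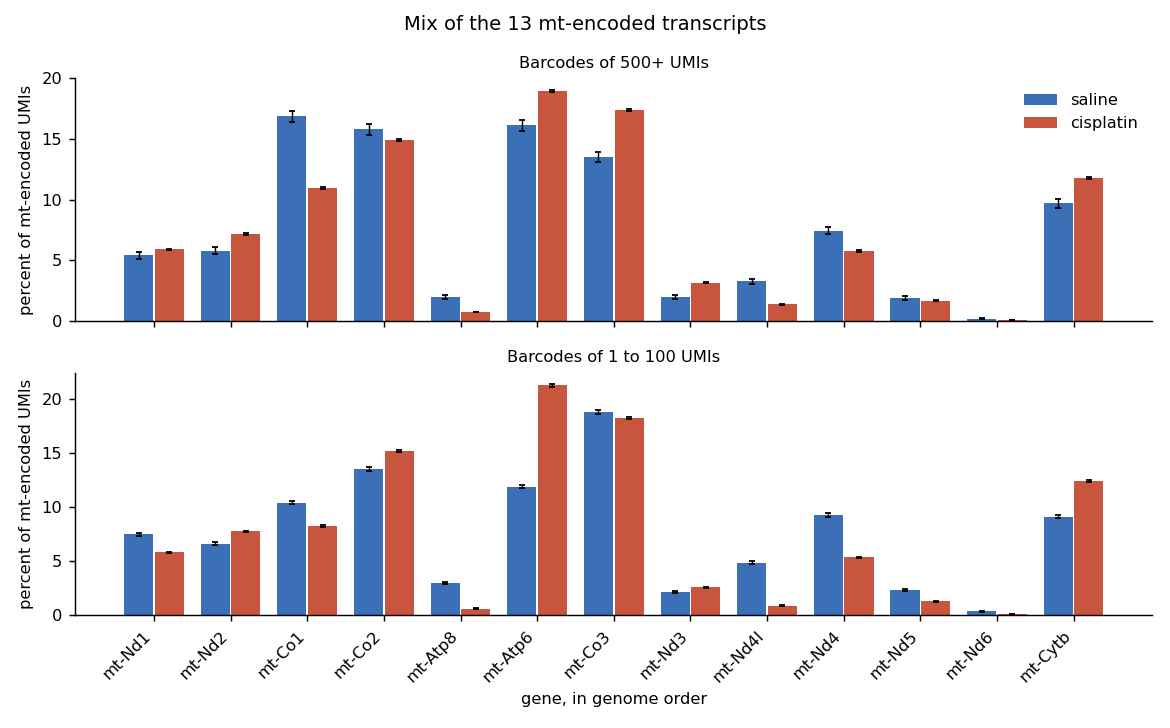
Bars give the percent of mt-encoded UMIs that each of the 13 genes held, in genome order, in barcodes of 500+ UMIs (top) and of 1 to 100 UMIs (bottom), for saline (blue) and cisplatin (red), with exact 95% intervals. mt-Atp8 and mt-Nd4l were lower in cisplatin in both panels, and mt-Atp6 and mt-Cytb were higher.

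The lowest ratios belonged to mt-Atp8 and mt-Nd4l, which each share a transcript and some bases with the gene that follows. Their counts are thus not levels of separate messages. mt-Atp8 (chromosome M, positions 7766 to 7969, plus strand, GRCm38 as annotated in GENCODE M21) overlaps mt-Atp6 (7927 to 8607) by 43 bases. mt-Nd4l (9877 to 10173) overlaps mt-Nd4 (10167 to 11544) by 7 bases. Atp8 and Atp6 encode subunits of the membrane part of the ATP synthase, and Nd4l and Nd4 subunits of the membrane arm of complex I. The sequences around both overlaps are shown because the counts of these gene pairs separate the libraries. Capitals mark the bases that belong to both reading frames, from the start codon of the second gene to the last base of the first.
mt-Atp8 to mt-Atp6: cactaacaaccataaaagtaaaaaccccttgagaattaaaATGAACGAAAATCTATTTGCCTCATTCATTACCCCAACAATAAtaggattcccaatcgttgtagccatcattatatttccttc
mt-Nd4l to mt-Nd4: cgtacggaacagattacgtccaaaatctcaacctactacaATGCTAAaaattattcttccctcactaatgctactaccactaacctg
The first line covers positions 7887 to 8009 and the second positions 10127 to 10213, both on the plus strand. The sources used here do not say how reads lying within the shared bases were assigned.

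In barcodes of at least 500 UMIs there were 546 mt-Atp8 and 4481 mt-Atp6 UMIs in saline, or 12.2 per 100 (11.1 to 13.3). In cisplatin there were 8184 and 202076, or 4.05 per 100 (3.96 to 4.14). The endothelial marker group gave 12.9 and 4.11 per 100, and the proximal tubule marker group 12.0 and 3.72. The gap was widest in barcodes of 1 to 100 UMIs, at 25.1 and 2.93. mt-Nd4l per 100 mt-Nd4 was 44.0 in saline and 23.6 in cisplatin at 500 UMIs or more. It was 44.4 and 20.7 in the endothelial marker group, 35.9 and 21.7 in the proximal tubule marker group, and 52.7 and 17.0 in barcodes of 1 to 100 UMIs. Within cisplatin, barcodes above 20% mt- had 4.11 mt-Atp8 per 100 mt-Atp6 and those at or below it 3.85, so the difference from saline was present on both sides of the split. With few saline barcodes the direction was not always the same: with distal and collecting duct markers, mt-Atp8 per 100 mt-Atp6 was 2.65 in saline, from 5 UMIs in 6 barcodes (0.849 to 6.28), and 4.23 in cisplatin. With leukocyte markers mt-Nd4l had 0 saline UMIs beside 3 of mt-Nd4.

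**Figure D3:**
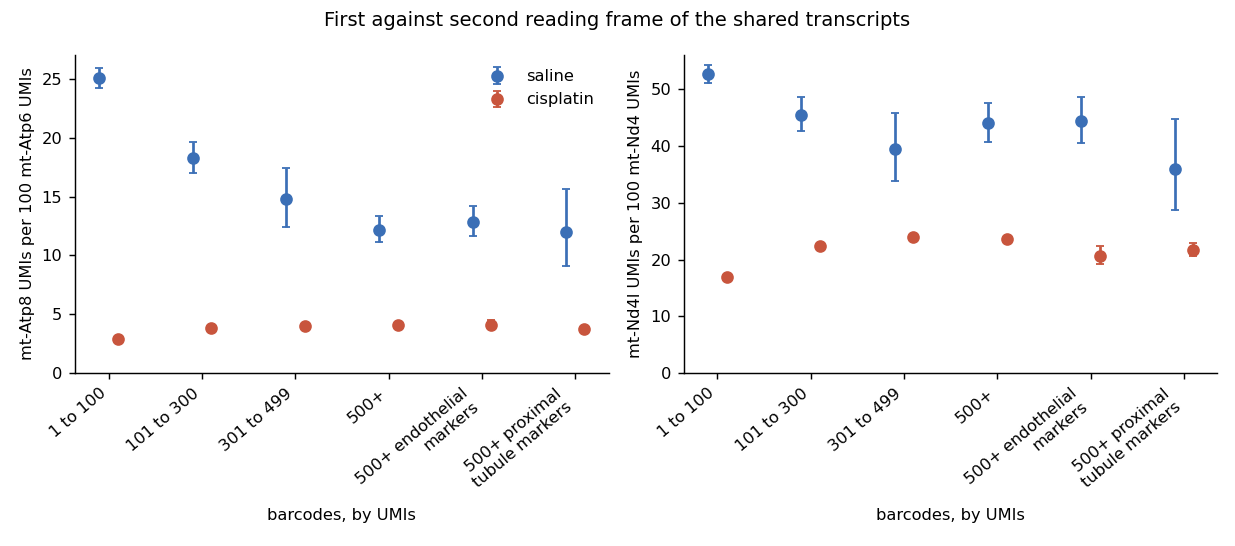
Points give mt-Atp8 UMIs per 100 mt-Atp6 UMIs (left) and mt-Nd4l UMIs per 100 mt-Nd4 UMIs (right) by class of barcodes, for saline (blue) and cisplatin (red), with exact 95% intervals. Saline lies above cisplatin in all 6 classes drawn, and the saline ratio is highest in barcodes of 1 to 100 UMIs.

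Nuclear-encoded subunits in the endothelial marker group were at nearly the same total level in both libraries. Their share of non-mt UMIs was 2.35% (saline) and 2.61% (cisplatin), 1.11 times as high (1.09 to 1.13). The direction rested on 4 cisplatin barcodes with at least 20 UMIs of loop, distal and collecting duct markers, the deepest with 116215 UMIs. These 4 held 17.8% of the group's UMIs and 28.0% of its nuclear-encoded subunit UMIs, and saline had 0 such barcodes. Without them the ratio was 0.973 (0.954 to 0.992), and with each barcode weighted equally it was 1.01, from mean shares of 2.13% and 2.17%. Distal and collecting duct markers summed to 97 UMIs in saline (13 of 18 markers detected) and 2266 in cisplatin (17 of 18), podocyte markers to 201 and 1112 (10 of 10 in both) and proximal tubule markers to 417 and 973 (20 of 20 in both). The part of the other cell types' RNA in the remaining result was not tested.

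Gene by gene, 79 of the 85 nuclear members reached 20 UMIs in the endothelial marker group. At least 1.5-fold higher in cisplatin were 16 of them, where 24.3% of all genes measured were, and 0 were as much lower, where 12.3% of all genes were. The members' median log2 ratio was 0.20 and that of all genes 0.12. Without the 4 barcodes, 10 of 78 members were higher, all among the 16, where 21.7% of all genes were, and Atp5g2 and Atp5j were lower, where 13% were. The members' median was then 0.02. Both shares of members past 1.5-fold lay below the share of all genes. These shares were not matched for counts. In the whole group 78 members had at least 50 UMIs. A gene nearer the limit of 20 UMIs passes 1.5-fold more easily by counting error, so nothing about the members is read from this.

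Complex II was the part furthest from 1. Its 4 genes summed to 246 UMIs in saline (2.62 per 10000 non-mt UMIs) and 425 in cisplatin (4.46 per 10000). The ratio was 1.71 (1.46 to 2.00), and 1.51 (1.27 to 1.79) without the 4 barcodes. Sdha, the flavoprotein that oxidizes succinate, had 73 and 149 UMIs, a ratio of 2.02 (1.51 to 2.71). Sdhb, the iron-sulfur subunit, had 84 and 113 (1.33, 0.993 to 1.78). The membrane anchors had 48 and 83 for Sdhc (1.71) and 41 and 80 for Sdhd (1.93). For the other complexes the ratio was 1.12 for complex I, 1.16 for complex III, 1.06 for complex IV and 1.11 for complex V. Without the 4 barcodes these were 0.991, 1.02, 0.921 and 0.969.

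Complex I had its highest ratio at Ndufa12, an accessory subunit next to the NADH-oxidizing arm, with 76 UMIs in saline and 207 in cisplatin (2.69, 2.06 to 3.55, and 2.28 without the 4 barcodes). Its members with most UMIs over all barcodes at or below 20% mt- were Ndufa2, at 369 and 354 UMIs in the endothelial group (0.948), and Ndufb1-ps, at 354 and 387 (1.08). Ndufb1-ps is annotated in GENCODE M21 as a non-coding RNA of a shared promoter. In complex III the iron-sulfur (Rieske) subunit Uqcrfs1 had 36 and 104 UMIs (2.85, 1.94 to 4.29, and 2.47 without the 4 barcodes). The most counted were Uqcr11 at 461 and 466 UMIs (0.998) and Uqcrh at 452 and 434 (0.948), both small subunits.

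Complex IV held the nuclear members with most UMIs over all barcodes at or below 20% mt-. Cox6c had 957 UMIs in saline and 836 in cisplatin (0.863, 0.785 to 0.948), and Cox8a had 841 and 981 (1.15, 1.05 to 1.26). Ndufa4, long listed with complex I and now placed with complex IV, had 751 and 710 (0.934). Among isoforms, Cox4i1 had 669 and 795 UMIs, while Cox4i2, a form tied to low oxygen and lung, had 2 and 4. Cox6a1 had 3.20 and 3.97 UMIs per 10000 non-mt UMIs, and the heart and muscle form Cox6a2 was at 0 in both. Cox7a2 had 590 and 568, Cox7a2l (a factor of supercomplex assembly) 205 and 241, and the muscle form Cox7a1 3 and 11. Cox8b, Cox8c and Cox7b2 were at 0 in both. The widely expressed form was thus the one counted in each set.

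In complex V the members differed in both directions. Atp5b, the catalytic beta subunit of the head, had 240 UMIs in saline and 581 in cisplatin (2.39, 2.05 to 2.79, and 2.04 without the 4 barcodes). Lowest were Atp5g2, a gene for the rotor ring, at 538 and 381 (0.699, 0.612 to 0.799), Atp5e, the epsilon subunit, at 830 and 629 (0.748, 0.674 to 0.831), and Atp5j, a stalk subunit, at 742 and 562 (0.748, 0.669 to 0.836). The ring protein has 2 further genes, whose direction depended on the 4 barcodes. Atp5g1 had 2.85 and 3.16 UMIs per 10000 non-mt UMIs (1.11) and Atp5g3 2.36 and 2.90 (1.23), and their ratios were 0.911 and 0.910 without the 4 barcodes, where that of Atp5g2 was 0.601. Atp5l, a membrane subunit, had 557 and 570 (1.01).

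**Figure D4:**
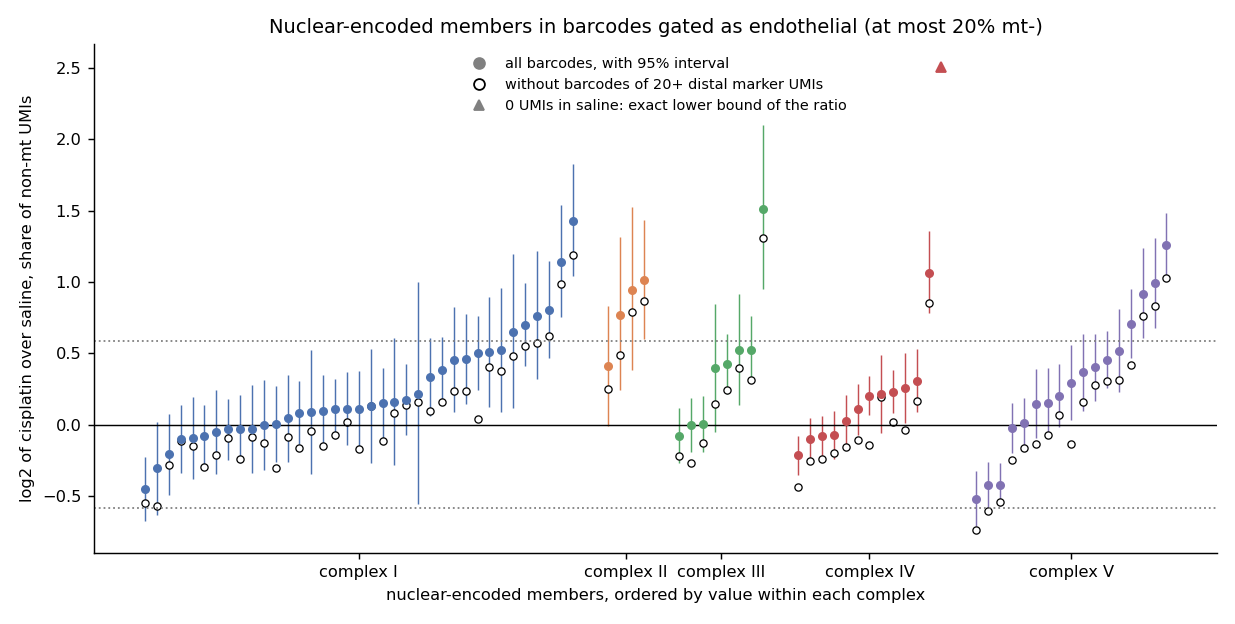
Each filled point is the log2 ratio of cisplatin to saline (share of non-mt UMIs) of 1 nuclear-encoded member in the endothelial marker group, with its 95% interval, grouped by complex. Open points leave out the 4 barcodes with 20 or more distal marker UMIs, the triangle is the exact lower bound for Cox6b2, and dotted lines mark 1.5-fold. Most points lie between the dotted lines, all 4 of complex II lie above 0, and most open points lie below the filled ones.

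The composition of the endothelium differed between the libraries, and the nuclear-encoded ratio differed between its parts. Barcodes with capillary genes (Ehd3, Plvap or Kdr, and none of Eln, Calca or Thbs2) numbered 236 and 106 once the distal-marker barcodes were left out. Their nuclear-encoded share was 1.958% (saline) and 2.52% (cisplatin), 1.29 times as high (1.24 to 1.34). Of 77 members measured there, 26 were at least 1.5-fold higher, where 21.5% of all genes were, and 0 were lower, where 20% were. The median log2 ratio was 0.40 against -0.0049 over all genes. Complex II was again highest, with 51 and 115 UMIs (1.90, 1.36 to 2.70). Large-vessel barcodes numbered 57 and 3, at 2.45% and 1.46%, a ratio of 0.595 that rests on 3 barcodes. These subgroups were defined after values had been seen. No ratio with barcodes weighted equally was computed for them, and the part of composition and of depth was not tested.

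Cox6b2, the testis form of the complex IV subunit that bridges its dimer, had the highest cisplatin to saline ratio of the members measured in both marker groups and in near-empty barcodes. It lies on chromosome 7 at positions 4751792 to 4753094 of GRCm38 (minus strand). Over all barcodes saline held 41 UMIs of it and cisplatin 2301, and its share of non-mt UMIs was 23.7 times as high (17.4 to 33.1). The saline UMIs lay in 41 barcodes and the cisplatin UMIs in 2134. The ubiquitous form Cox6b1 had 1083 and 4160 UMIs, a ratio of 1.62 (1.52 to 1.74). Barcodes of 1 to 100 UMIs gave Cox6b2 a ratio of 23.8 from 33 and 327 UMIs. In the endothelial marker group it had 0 and 23 UMIs (lower bound of the ratio 5.68), and in the proximal tubule marker group 1 and 156 (16.1, 2.84 to 638). The 2 cisplatin barcodes with most Cox6b2 held 17 and 9 UMIs and matched proximal tubule and distal markers. The first of these also held 95 distal marker UMIs. The free RNA estimated for the endothelial marker group would hold 12.4 of its 23 cisplatin UMIs and 0.24 UMIs in saline, so the marker groups are not independent of the near-empty barcodes.

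The proximal tubule marker group had a nuclear-encoded share 1.27 times as high in cisplatin (1.20 to 1.34), from 1.19% and 1.503% of non-mt UMIs. With each barcode weighted equally the means were 1.10% and 1.25%, a ratio of 1.14. Of 79 members measured, 32 were at least 1.5-fold higher, where 28.2% of all genes were, and 2 (Sdhd and Ndufs1) were lower, where 14.9% were. The median log2 ratio was 0.39, against 0.06 for all genes. The group held 5 cisplatin and 0 saline barcodes with at least 20 distal marker UMIs. Without these the share ratio was 1.19 (1.13 to 1.26) and 24 of 79 members were higher, where 28.3% of all genes were. Saline counts were small, so single genes are imprecise. After Cox6b2 the highest by the lower interval bound were Cox5a, a structural complex IV subunit, with 6 and 174 UMIs (2.98), and Ndufa13, an accessory complex I subunit also known as GRIM-19, with 8 and 200 (2.57). Ndufa8 had a higher ratio from fewer UMIs, 2 and 85 (4.37, 1.17 to 36.7). Lowest by the upper interval bound were Uqcr11 at 47 and 365 (0.799), Uqcrq at 51 and 418 (0.843) and Atp5e at 50 and 418 (0.860), each with an interval that reached above 1. Complex II was at 29 and 303 UMIs, with a ratio of 1.08 (0.733 to 1.63). Of the 16 members higher with endothelial markers and the 32 higher here, 5 were the same (Atp5b, Atp5o, Cox6b2, Cox7b and Uqcrfs1), which is 5 of 16 and 5 of 32. The same overlap over all genes was not counted, so nothing about the members is read from it. Cox6b2 had 0 saline UMIs in the endothelial marker group.

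Within the cisplatin library the nuclear-encoded share was compared above and below 20% mt-. Over all barcodes of at least 500 UMIs it was 2.70% above and 2.36% at or below the split, a ratio of 1.14 (1.13 to 1.16). The direction turned to 0.966 from 300 UMIs per barcode, and the ratio was 1.58 from 1000. Just below the split (15% to 20% mt-) 391 barcodes had 2.64%, and just above it (20% to 25%) 241 had 2.60%. The marker groups differed in direction. With proximal tubule markers it was 2.31% in 942 barcodes above and 1.503% in 1263 below, a ratio of 1.54 (1.4997 to 1.57). With endothelial markers it was 1.83% in 94 barcodes and 2.61% in 187, a ratio of 0.703 (0.656 to 0.752). With distal and collecting duct markers it was 7.48% in 58 and 6.33% in 40, a ratio of 1.18 (1.15 to 1.22). The difference between the groups was not tested. For endothelial markers it depended on the limits used: the ratio was 1.01 with the split at 10% and 0.991 from 1000 UMIs per barcode. By interval of mt- share, endothelial markers went with 2.50% to 2.85% below the split and 1.23% to 2.04% from 20% to 60% mt-. The share was 3.29% at 60% to 80% mt- (12 barcodes) and 3.56% above 80% (6 barcodes). Without barcodes of at least 20 distal marker UMIs the ratio was 0.802 with endothelial and 1.52 with proximal tubule markers.

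By gene, 41 of 80 members were at least 1.5-fold higher above the split with proximal tubule markers, where 11.6% of all genes were, and 0 were as much lower, where 10.8% were. Complex IV led with 12 of 14 measured members and a median log2 difference of 0.78, and Cox8a went from 497 UMIs below to 424 above (1.92 times the share of non-mt UMIs). With endothelial markers, 2 of 79 were higher, where 34.5% of all genes were, and 36 were lower, where 27.4% were, with a median of -0.43. Without the distal-marker barcodes 4 of 79 were higher and 25 lower, where 31.8% and 30.2% of all genes were, with a median of -0.21. Cox8a had 981 UMIs below and 26 above there (0.535), and Ndufa4 710 and 10 (0.284). With distal markers 17 of 79 were higher, where 18.7% of all genes were, and 1 was lower (Uqcrc2), where 26.4% were. Median depth varied with mt- share: with endothelial markers it was 4984 UMIs per barcode below 5% mt-, 636 at 10% to 20% and 894.5 at 80% to 100%. With proximal tubule markers it was 745, 733 and 1131 in the same intervals. Proximal tubule markers in the endothelial group were 0.102% of non-mt UMIs below the split (973 UMIs, 20 of 20 detected) and 0.560% above (264 UMIs, 18 of 20, with Cubn and Slc5a12 at 0). The part of depth and of tubular RNA in this difference was not tested.

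**Figure D5:**
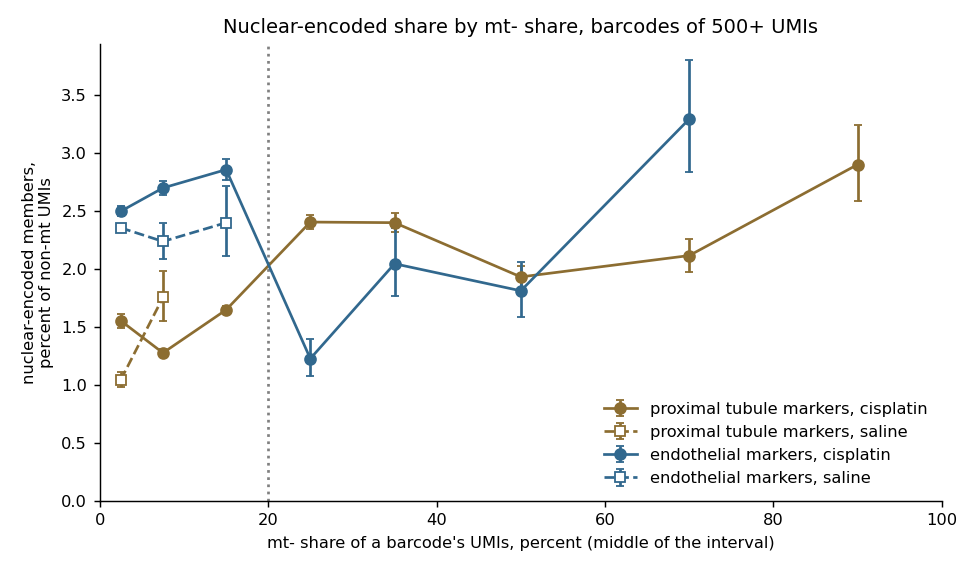
Points give the nuclear-encoded members as a percent of non-mt UMIs in barcodes of 500+ UMIs, by interval of mt- share (at least 9 barcodes each), for proximal tubule markers (brown) and endothelial markers (blue), in cisplatin (filled) and saline (open), with exact 95% intervals. The dotted line marks 20%, where the proximal tubule line steps up and the endothelial line steps down, while both vary without a single trend above it.

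The nuclear-encoded level also differed between the smaller marker groups. With at most 20% mt-, distal and collecting duct markers went with the highest summed nuclear-encoded share of the marker groups, at 6.62% of non-mt UMIs in 6 saline and 6.33% in 40 cisplatin barcodes. Leukocyte markers gave 2.25% in 3 and 2.23% in 72 barcodes, podocyte markers 4.38% in 2 and 3.40% in 6, and mural and fibroblast markers 1.15% in 1 and 2.95% in 16. A few deep barcodes carried the distal level: 1 saline barcode of 15630 UMIs gave 910 of the nuclear-encoded UMIs, and the median barcode was at 1.62% and 2.56%, against 2.13% and 2.01% with endothelial markers. These groups held too few saline barcodes for a comparison. Their mt-encoded share was higher in cisplatin in each, from 1.26% and 3.83% with leukocyte markers to 6.28% and 14.5% with distal markers.

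Promoters of nuclear members were searched for the letters GCGCA, any base and then GCGC, on both strands, the site of nuclear respiratory factor 1, a regulator of many of these genes. RefSeq promoters (GRCm38.p6, from 250 bases before to 50 after the start) matched 70 of the 85 nuclear members by symbol or synonym. The motif was present on either strand in 17 of 70 (24.3%), and in 1402 of 27025 genes with a promoter (5.19%). In the endothelial marker group, the 17 members had a median log2 ratio of 0.30 and the 50 measured members without it 0.15. In the proximal tubule marker group the order was the other way, at 0.37 and 0.48, and in barcodes of 1 to 100 UMIs it was 0.82 and 1.06. Presence of the motif did not separate members in one direction. Shown are the matches of the 2 complex II genes that have one before the start site and of Atp5g2, the lowest member in the endothelial marker group, with the motif in capitals. All are written 5′ to 3′ on the gene's strand, which is minus for each.
Sdha, chr13:74350304-74350363: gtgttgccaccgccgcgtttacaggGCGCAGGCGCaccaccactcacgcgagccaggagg
Sdhd, chr9:50603894-50603953: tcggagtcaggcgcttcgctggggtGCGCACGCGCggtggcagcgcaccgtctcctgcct
Atp5g2, chr15:102671055-102671114: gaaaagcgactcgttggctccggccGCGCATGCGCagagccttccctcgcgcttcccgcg
The matches end 88, 69 and 32 bases before the RefSeq start site. In GENCODE M21, Atp5g2 spans positions 102662864 to 102672352 of chromosome 15, so its match lies within the gene as annotated there. Sdha and Sdhd were at 2.02 and 1.93 times the saline level and Atp5g2 at 0.699. The same letters thus stood before RefSeq start sites of members with ratios above 1 and below 1. Sdha and Sdhd were not the highest members, and an effect of the motif was not tested.

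Other genes of the pathway were counted by list in the endothelial marker group, beside the 24.3% of all genes that were higher and the 12.3% that were lower. Electron carriers and exchange proteins had 9 of 14 measured genes at least 1.5-fold higher and 0 lower (8 and 0 without the 4 distal-marker barcodes). Ucp2, an uncoupling protein of the inner membrane, had 80 and 420 UMIs (5.19, 4.07 to 6.67, and 3.89 without those barcodes), and 125 and 225 in near-empty barcodes (4.31). The phosphate carrier Slc25a3 had 213 and 389 (1.80, and 1.56). The ADP/ATP carrier Slc25a5 had 162 and 311 (1.90), but 1.19 without those barcodes. Citrate cycle genes had 9 of 16 higher and 0 lower (5 and 0 without). Assembly factors had 10 of 36 higher and 0 lower (8 and 1 of 35 without).

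Other lists concerned mitochondrial gene expression. In mitochondrial transcription and transcript stability, 1 of 10 was higher (Slirp, which stabilizes mt-encoded messages, at 61 and 97 UMIs, 1.57) and 0 were lower (1 and 1 without the distal-marker barcodes). Mitochondrial ribosomal proteins had 1 of 23 higher (Mrps34) and 1 lower (Mrpl15), with 1 and 4 without the distal-marker barcodes. Of 6 nuclear regulators measured, Ppargc1a and Esrra were higher and 0 lower, and without those barcodes 1 of 5 was higher and 1 lower. Ppargc1a, a coactivator of mitochondrial genes, had 4 and 35 UMIs, of which 9 were left in cisplatin without the 4 barcodes. In the proximal tubule marker group it had 16 and 90 UMIs, a ratio of 0.579 (0.338 to 1.06), and in near-empty barcodes 416 and 93 (0.536). In the proximal tubule marker group, where 28.2% of all genes were higher and 14.9% lower, mitochondrial ribosomal proteins had 9 of 23 higher and 3 lower, and citrate cycle genes 4 of 16 higher and 2 lower. Tfam, the mitochondrial transcription and packaging factor, had 29 and 36 UMIs in the endothelial marker group (1.23, 0.731 to 2.07).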

How the data were processed

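The authors deposited raw, unfiltered matrices of UMI counts per gene and barcode, made with Cell Ranger 6.0.1 on mm10 per the submitters' processing notes (the file headers name Cell Ranger 4). The counts were used as deposited and summed over barcodes. Members were found by symbol, and members and gene lists were chosen with earlier results of these data known. A barcode of at least 500 UMIs joined a marker list when at least 2 of its genes (3 for proximal tubule) had a UMI and no other list had as many. No doublet caller was run. Nuclear-encoded levels are shares of non-mt UMIs. Intervals are exact (Clopper-Pearson for shares, conditional binomial for ratios) at 95%. A gene was measured with at least 20 UMIs over both groups and counted as higher or lower at 1.5-fold. Log2 ratios had 0.5 UMI added. Free RNA was profiled in barcodes of 1 to 100 UMIs and scaled by proximal tubule markers. A further profile, not planned at the start, came from barcodes of 101 to 300 UMIs. Named were all mt-encoded genes, complex II, isoform sets, the 2 most counted members per complex and the 3 highest and 3 lowest per group by the bound nearest 1. Others were chosen after their values were seen. Calculations used Python 3.11.15, numpy 2.4.6 and scipy 1.17.1, and were tested on simulated data. Gene positions are from GENCODE M21 (GRCm38).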

Additional observations from a re-analysis of the deposited data

Results flagged for a closer look

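Within the cisplatin library the nuclear-encoded share above 20% mt- was 1.54 times that below it with proximal tubule markers and 0.703 times with endothelial markers. The marker groups thus lay on opposite sides of 1, and the difference between them was not tested. With endothelial markers not all barcodes above the split were lower. The share was 3.29% at 60% to 80% mt- (12 barcodes) and 3.56% above 80% (6 barcodes), against 2.61% below the split.

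Barcodes of more than 100 and up to 300 UMIs, and of more than 300 and below 500, lie between the depth classes compared. In the cisplatin library their mt-encoded shares were 35.0% and 40.7%, above the 3.96% and 3.43% of the saline library in the same classes.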

How the results depend on the processing

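All values are ratios of cisplatin to saline unless said otherwise. No paired analysis was possible because there was 1 library per treatment, and for the same reason no replicate could be left out. The mt-encoded share ratio of 9.66 was 11.7 from 300 and 7.70 from 1000 UMIs per barcode. The mt-encoded per nuclear-encoded ratio of 11.7 was 15.8, 7.76 and, without mt-Atp6, 11.3. In near-empty barcodes the ratio of 5.80 was 14.2 at 1 to 30 UMIs, 4.47 at 10 to 100 and 5.18 without mt-Atp6. The nuclear-encoded share with endothelial markers, 1.11, was 1.07 over all UMIs, 1.40 in capillary barcodes and 1.29 in those without distal-marker barcodes, 1.25 with no podocyte UMI and 1.01 with barcodes weighted equally. It reversed to 0.595 in large-vessel barcodes and to 0.973 without distal-marker barcodes. With proximal tubule markers, 1.27 became 1.43 from 300 UMIs, 1.12 from 1000, 1.19 at a 10% limit, 1.48 with no limit, 1.17 over all UMIs, 1.19 without distal-marker barcodes and 1.14 with equal weights.

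Above against below 20% mt- in cisplatin, 1.14 over all barcodes became 0.966 from 300 UMIs (reversed), 1.58 from 1000, 1.20 with the split at 10% and 1.02 at 40%. For endothelial markers 0.703 became 0.991 from 1000 UMIs, 1.01 at 10% (reversed), 0.903 at 40% and 0.802 without distal-marker barcodes. For proximal tubule markers 1.54 became 1.33 from 300 and 1.94 from 1000 UMIs, and 1.44 and 1.20 at 10% and 40%. The 16 of 79 endothelial members higher (24.3% of all genes) became 10 of 78 without distal-marker barcodes (21.7%). In capillary barcodes they became 34 of 77, and 26 of 77 in those without distal-marker barcodes (21.5%). They became 2 of 62 in large-vessel barcodes and 25 of 77 with no podocyte UMI. The 0 lower (12.3% of all genes) became 2 of 78 without distal-marker barcodes (13%). In large-vessel barcodes, of which cisplatin had 3, they became 35 of 62. The 2 of 79 lower with proximal tubule markers (14.9%) became 1 of 78 at 50 UMIs per gene. From 1000 UMIs per barcode they became 9 of 78. Where no percent is given, the share of all genes was not counted, so nothing about the members is read from those counts. The limits by capillary, large-vessel, podocyte and distal genes and the equal weighting were chosen after seeing the data. Fewer barcodes or genes enter under the stricter limits; otherwise the cause was not tested. A further 39 values kept their direction and stayed within the counting interval, or within 1.5 times for counts. Low saline counts limit single genes with proximal tubule markers.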

Other observations

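The saline library held exactly 100000 barcodes of a single UMI, and the cisplatin library 302409. The share of mt-encoded UMIs in them was 5.36% and 52.5%. Whether the saline file lists all of its single-UMI barcodes is not known from the sources used here, so barcode numbers and saline values that include this class, among them those of 1 to 100 UMIs, carry that doubt. In barcodes of 31 to 100 UMIs, which leave it out, the mt-encoded share was 3.78% and 25%.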
